A study of Homo sapiens with 12 samples.

Results

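The melanoma antigen (MAGE) family was described across 3 prostate cell lines. Members were the rows typed protein-coding whose gene name begins with MAGE, which gave 35 of the 58302 genes in the table. By name alone, 26 were type I genes (12 MAGEA, 11 MAGEB and 3 MAGEC) and 9 were type II genes (MAGED1, MAGED2, MAGED4, MAGED4B, MAGEE1, MAGEE2, MAGEF1, MAGEH1 and MAGEL2). On GRCh38, 33 members lie on chromosome X, MAGEF1 on chromosome 3 and MAGEL2 on chromosome 15.

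RNA was sequenced from BPH-1, PC3 and DU145, with 4 libraries of each line, all labelled WT in genotype and with no treatment named. BPH-1 is a benign prostate epithelial line immortalised with SV40 large T antigen, and PC3 and DU145 are PCa lines that grow without androgen. All 3 were cultured in DMEM with fetal bovine serum. Each condition is therefore a single established line, so a difference between lines cannot be told apart from a difference between benign and malignant cells, and nothing in the labels says that the 4 libraries of a line came from separate cultures, so p-values measure only the spread between these libraries.

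All MAGE proteins share a MAGE homology domain, by which many of them bind a RING ubiquitin ligase and change its activity or its substrates. Type I genes are X-linked cancer-testis genes, silent in most adult tissues outside the germ line, kept off by DNA methylation of their promoters and switched on in some tumours. Most type II genes are used in many tissues, and MAGEL2, from the imprinted Prader-Willi region, is mainly a gene of the brain.

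The library depth was 12950757 to 16309825 reads, recovered from the FPKM values (reads scaled to gene length and library depth). The epithelial keratin KRT8 was present in all lines, at 31.1 ± 9.58 FPKM in BPH-1, 19.7 ± 8.62 in DU145 and 23.0 ± 6.30 in PC3 (mean ± SD, n = 4). KRT18 was at 35.8 ± 6.15, 69.0 ± 21.9 and 29.5 ± 3.55 FPKM in the same order. Other epithelial genes were lower in both PCa lines than in BPH-1, although EPCAM was still clearly read in PC3. In the same order, CDH1 was at 28.4 ± 12.2, 0.180 ± 0.0936 and 0.786 ± 0.440 FPKM, and EPCAM at 60.8 ± 2.28, 0.376 ± 0.168 and 9.10 ± 1.81. KRT5 was at 146.9 ± 29.6, 0.216 ± 0.245 and 0.0118 ± 0.0180 FPKM. KLK3, which encodes prostate-specific antigen, was at 0 in every library. The germ-cell genes DAZL and TEX101 were also at 0 in all 12 libraries, and DDX4 and MAEL averaged at most 0.00633 FPKM and SYCP3 at most 0.0728 FPKM in any line. The leukocyte gene PTPRC averaged 1.35 ± 0.163 FPKM in BPH-1 and 0 in PC3, while CD3E was at 0 in all libraries.

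The 4 DU145 libraries stood apart from each other in more than one way. PTPRC had 275, 256, 0 and 0 reads in DU145 replicates 1 to 4, the endothelial gene PECAM1 had 29, 33, 0 and 0, and the fibroblast gene DCN had 0, 0, 102 and 51. The epithelial gene KRT5 had 45, 66, 3 and 0. Other endothelial and fibroblast genes did not split this way. VWF, also endothelial, had 13, 10, 29 and 7 reads in DU145. The fibroblast gene COL1A1 had 91, 75, 105 and 77, and COL3A1 had 5, 5, 16 and 3. PECAM1 was also read in PC3, at 1.68 ± 0.472 FPKM. At least 20 reads in both of replicates 1 and 2 and none in replicates 3 and 4 were found for 32 genes, against 0 to 5 genes for any other pair of libraries within a line. Across all genes, however, replicates 1 and 3 were closest to each other and so were 2 and 4, with a chi-square per gene of 37.0 and 23.7 within these pairs and 104 to 215 between them. Results on DU145 are therefore also given with 2 of its libraries at a time, an alternative chosen after the data were seen. What sets these libraries apart was not tested.

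The sequence before the gene start is shown for 4 members whose levels mark the patterns found: MAGEA3, read mainly in PC3; MAGEB2, read in DU145 alone; MAGEE1, nearly unread in DU145; and MAGEF1, the member with the highest level in every line. The sequences are RefSeq promoter windows on GRCh38.p14, written 5′ to 3′ on the strand of the gene, and those of MAGEA3 and MAGEB2 were cut short where they enter the gene model of GENCODE 29. Capitals mark CpG dinucleotides, the sites of DNA methylation. The windows are chrX:152698544-152698751 (plus strand) for MAGEA3, chrX:30215313-30215559 (plus) for MAGEB2, chrX:76427460-76427709 (plus) for MAGEE1 and chr3:184712065-184712314 (minus) for MAGEF1.
MAGEA3: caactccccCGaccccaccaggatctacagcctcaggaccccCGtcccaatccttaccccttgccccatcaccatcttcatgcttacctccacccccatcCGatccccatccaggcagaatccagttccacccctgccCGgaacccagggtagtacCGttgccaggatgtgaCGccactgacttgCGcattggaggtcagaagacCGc
MAGEB2: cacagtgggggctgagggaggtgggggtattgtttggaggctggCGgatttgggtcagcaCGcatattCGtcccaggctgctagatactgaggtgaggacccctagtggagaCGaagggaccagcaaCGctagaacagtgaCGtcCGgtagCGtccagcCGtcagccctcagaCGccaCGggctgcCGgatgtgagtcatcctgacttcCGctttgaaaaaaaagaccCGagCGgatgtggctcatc
MAGEE1: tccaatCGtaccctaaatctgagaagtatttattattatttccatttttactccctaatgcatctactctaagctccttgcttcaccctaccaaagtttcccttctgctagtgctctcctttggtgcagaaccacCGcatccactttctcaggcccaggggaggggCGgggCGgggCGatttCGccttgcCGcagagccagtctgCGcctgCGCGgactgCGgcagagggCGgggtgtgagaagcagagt
MAGEF1: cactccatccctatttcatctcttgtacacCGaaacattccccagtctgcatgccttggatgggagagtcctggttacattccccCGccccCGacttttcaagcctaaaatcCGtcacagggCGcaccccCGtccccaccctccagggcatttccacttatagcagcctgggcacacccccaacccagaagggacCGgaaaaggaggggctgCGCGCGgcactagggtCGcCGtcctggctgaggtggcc

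Promoter windows were found for 23 type I and 8 type II members. Over the whole 250 bases before each RefSeq start, the type I windows held 1 to 18 CpGs (median 8, 31 windows), and the type II windows held 6 to 22 (median 12, 11 windows), against a median of 11 over all 35116 windows. The counts of the printed genes were 15 for MAGEA3, of which 8 lie before the GENCODE gene model and are printed, 15 for MAGEB2, 12 for MAGEE1 and 12 for MAGEF1. The window of MAGEA6 (chrX:152769690-152769939, minus strand) was the same as that of MAGEA3 at all 250 bases. CCGGAA, the core of an ETS factor motif, was searched on both strands and was present in 4 of the 31 type I windows, among them MAGEA3 and MAGEA6, and in 14.5% of all windows. No methylation was measured, and a match of letters is not a bound site.

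Type I genes were close to silent in every line. Summed over all 26 genes, they took 41 reads in the 4 BPH-1 libraries, 50 in DU145 and 171 in PC3. The 9 type II genes took 14278, 22688 and 24395 reads. The summed level of type I genes was 0.122 ± 0.0353 FPKM in BPH-1, 0.380 ± 0.181 in DU145 and 0.976 ± 0.118 in PC3, and that of type II genes was 72.5 ± 7.88, 93.8 ± 23.1 and 92.6 ± 11.05 FPKM. The 2 classes thus differed in every library by far more than the spread between libraries, and no type I gene reached a mean of 1 FPKM in any line with the deposited gene lengths, although MAGEA3 in PC3 did with merged exons, at 1.15 ± 0.114 FPKM.

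A total of 14 members had no read in any of the 12 libraries, namely 13 type I genes and MAGEE2. For these, the value of 3 reads over the 4 libraries of a line was 0.00638 to 0.0461 FPKM, which is the highest level that a count of 0 allows for counting error. Another 6 type I genes (MAGEA1, MAGEA2, MAGEB3, MAGEC1, MAGEC2 and MAGEC3) had 1 or 2 reads in all 12 libraries, which is within that limit. The limit does not cover reads that match several genes, whose treatment is not given in the sources used here. Of the unread genes, MAGEA9, MAGEA9B and MAGEA2B share 89.7%, 79.9% and 82.4% of the 100-base stretches of their transcripts with a near copy. Over 3 reads in at least one line were found for 7 type I genes, and MAGEB6 was the lowest of them, with 1 read in DU145 and 4 in PC3. The remaining 6 differed in which line they were read in.

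MAGEA3, which with its ligase TRIM28 directs the breakdown of the energy sensor AMPK, was the most read type I gene. Its reads in replicates 1 to 4 were 2, 0, 1 and 4 in BPH-1, 2, 0, 0 and 0 in DU145, and 26, 25, 29 and 30 in PC3. All PC3 libraries stood above every other library. The mean was 0.497 ± 0.0493 FPKM in PC3, 0.0272 ± 0.0264 in BPH-1 and 0.00744 ± 0.0149 in DU145. Scaled for depth, PC3 had 18.2 times the MAGEA3 reads of BPH-1 (95% exact interval 8.52 to 46.2) and 63.1 times those of DU145 (17.1 to 528), where the intervals cover counting error only.

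MAGEA6, a near copy of MAGEA3 that acts on the same ligase, did not follow it. MAGEA6 had 3, 3, 3 and 2 reads in BPH-1, none in DU145, and 3, 2, 2 and 4 in PC3. BPH-1 and PC3 overlapped, although MAGEA3 separated them. Of the 100-base stretches in MAGEA3 transcripts, 34.9% also occur in MAGEA6, and 33.0% of those in MAGEA6 occur in MAGEA3, so reads from the shared stretches cannot be placed with certainty, and how the counting treated them is not given in the sources used here. MAGEA12 had 2, 2, 2 and 7 reads in PC3 and none in BPH-1 or DU145.

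Reads of 2 MAGEB genes were each found in one line. MAGEB2 had 15, 6, 7 and 5 reads in DU145 (0.329 ± 0.166 FPKM) and none in the 8 other libraries, which makes it at least 11.1-fold higher than in BPH-1 and at least 9.59-fold higher than in PC3, against a floor of 3 reads over a line. MAGEB17 had 10, 7, 5 and 6 reads in PC3 (0.313 ± 0.104 FPKM) and none elsewhere, at least 10.8-fold higher than in BPH-1 and at least 10.7-fold higher than in DU145. Both were below the 10 reads in each of 4 libraries that the test across genes required, so they were not in the main test. Fitted with no filter, MAGEB2 was called higher in DU145 than in BPH-1 (limma adjusted p = 0.00446) and MAGEB17 higher in PC3 than in BPH-1 (limma adjusted p = 0.000743).

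The nearest coding genes with at least 10 reads in a library were read on each side of these 2 members, and on one side each the levels went another way. GRPR, the receptor for gastrin-releasing peptide, ends 14.5 kb before MAGEB17 on chromosome X and was at 11.8 ± 6.17 FPKM in PC3, against 0.192 ± 0.182 in BPH-1 and 0.0749 ± 0.105 in DU145. CTPS2, on the other side at 416.5 kb, was at 5.94 ± 1.83 FPKM in BPH-1, 1.08 ± 0.355 in DU145 and 5.47 ± 1.44 in PC3. NR0B1, which begins 84.1 kb after MAGEB2, was at 0.742 ± 0.215 FPKM in DU145, 0.00650 ± 0.0130 in BPH-1 and 0 in PC3. The nearest such gene before MAGEB2, POLA1, lies as far as 5219 kb away. POLA1 was lowest in DU145, at 1.23 ± 1.19 FPKM against 15.6 ± 2.35 in BPH-1 and 2.60 ± 1.78 in PC3. MAGEB17 also overlaps the antisense gene AC078993.1 over 3389 bases, which averaged 0.0550 FPKM in PC3, and whether the counting used strand is not given in the sources used here. The part of these neighbours in the MAGEB17 and MAGEB2 reads was not tested.

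MAGEA4, which stabilises the DNA repair ligase RAD18, was read in BPH-1 and DU145 and not in PC3. It had 9, 6, 6 and 0 reads in BPH-1 and 4, 9, 0 and 0 in DU145, and no read in PC3. The reads were uneven between libraries of one line, and both lines had a library at 0 that overlapped PC3. In DU145 the MAGEA4 reads lay in replicates 1 and 2, the same libraries that held PTPRC.

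**Figure D1:**
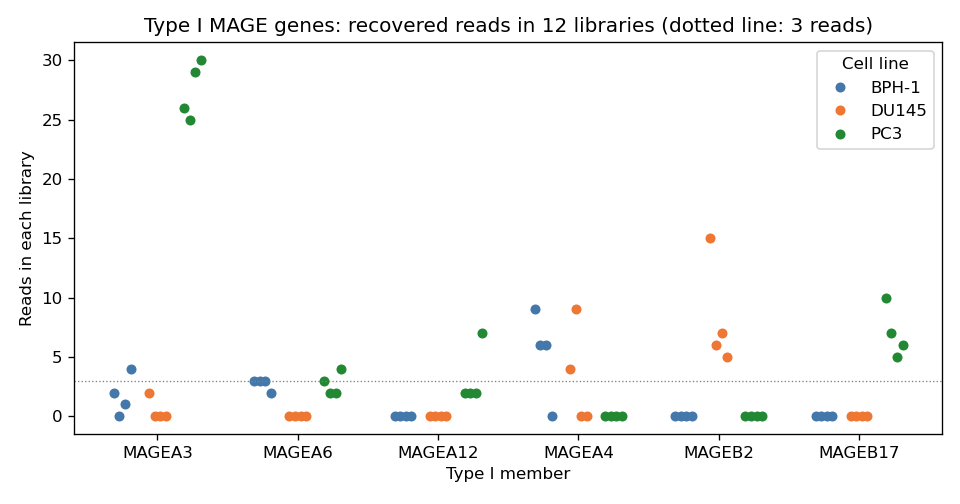
Reads of 6 type I genes in each library, with the gene on the horizontal axis and reads per library on the vertical axis, 1 point a library. The 4 PC3 points of MAGEA3 lie at 25 to 30 reads, MAGEB2 is above 0 only in DU145 and MAGEB17 only in PC3.

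MAGEF1 was the most abundant member in all lines. It binds the ligase NSMCE1 and directs the iron-sulfur assembly factor MMS19 to breakdown. Its level was 48.1, 56.5, 47.4 and 57.3 FPKM in BPH-1, 60.4, 49.4, 82.4 and 53.8 in DU145, and 45.4, 46.5, 50.1 and 63.8 in PC3, and the 3 lines overlapped. MAGEF1 made up 72.2% ± 1.18 of the summed type II FPKM in BPH-1, 65.7% ± 1.95 in DU145 and 55.4% ± 2.73 in PC3. The order below it in PC3 was MAGED1 at 19.4 FPKM, MAGED2 at 10.4, MAGED4 at 5.89, MAGEE1 at 3.71 and MAGED4B at 1.66.

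The level of genes with many exons depends on the length used. The deposited FPKM divides by the summed length of distinct exons, in which overlapping exons count repeatedly, so MAGED1 enters with 10846 bases from 34 exons against 6016 bases once the exons are merged. With merged lengths, an alternative chosen after the data were seen, the PC3 mean was 34.9 ± 3.001 FPKM for MAGED1, 23.7 ± 5.58 for MAGED2, 12.5 ± 2.17 for MAGED4 and 3.62 ± 0.498 for MAGED4B, while the single-exon genes MAGEF1, MAGEE1 and MAGEH1 kept their values. MAGEF1 was still the highest member in each line, at 51.5 ± 8.47 FPKM in PC3. The length is the same in all libraries and does not change a comparison of one gene between lines on the linear scale.

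**Figure D2:**
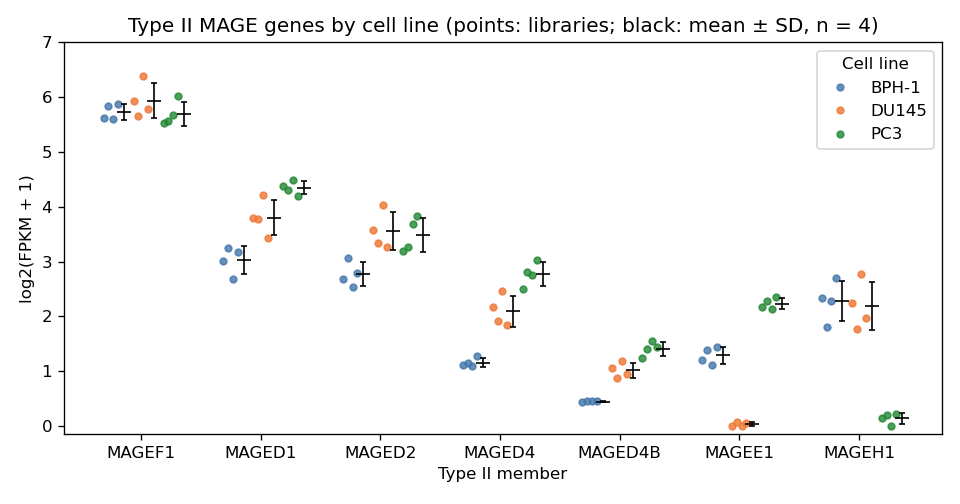
Level of 7 type II genes on the log2(FPKM + 1) scale, 1 point a library with the mean ± SD of 4 libraries in black. MAGEF1 is highest in all lines, MAGEE1 is near 0 in DU145 and MAGEH1 is near 0 in PC3.

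For the comparisons between lines, a gene was tested where it reached 10 reads at the median depth in at least 4 libraries of the pair. This left 7 type II genes, and MAGEA3 in the 2 pairs with PC3. A member near 0 in one line passed only through the other and had to differ. This holds for MAGEA3 in both pairs with PC3, for MAGEH1 in both pairs with PC3 and for MAGEE1 in both pairs with DU145, so their p-values are given from a fit with no filter and the counts are repeated over members with 10 reads in every library compared. Adjusted p-values are from limma with Benjamini-Hochberg adjustment over all genes tested, a gene was called at an adjusted p under 0.05, and log2 differences are on the log2(FPKM + 1) scale, which understates changes of low genes.

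The first question was which members separate PC3 from BPH-1. Of 8 members tested, 6 rose in PC3, 1 fell and 1 did not pass, where 67.6% of all 16345 genes were called, 27.2% as higher and 40.5% as lower. Libraries of the 2 lines did not overlap for 7 of the 8 members, as for 64.5% of all genes. Most genes of this pair were called, so a call is not particular to the family. Of the 6 members with 10 reads in every library, 5 rose and 1 did not pass, where 64.6% of all genes were called. Among 352 other protein-coding genes of chromosome X under that filter, 75 were called higher and 173 lower. Their median log2 difference was -0.35, against 0.95 for the 6 members and -0.08 for all genes. These medians are without a correction for GC content, which moved the type II members to lower values. MAGED4 and MAGED4B, which are near copies, count separately among the 6.

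MAGED4 and MAGED4B had the largest relative rise among the type II genes. MAGED4 was at 1.15, 1.23, 1.13 and 1.41 FPKM in BPH-1 and at 4.68, 6.02, 5.73 and 7.15 in PC3, a 4.79-fold higher mean (log2 difference 1.62, SE 0.13, limma adjusted p = 5.78e-06). MAGED4B rose 4.61-fold (log2 difference 0.96, SE 0.08, limma adjusted p = 7.44e-06). MAGED1, an adaptor of the p75 neurotrophin receptor, was at 7.09, 8.43, 5.43 and 8.06 FPKM in BPH-1 and at 19.9, 18.8, 21.4 and 17.4 in PC3 (log2 difference 1.32, SE 0.14, limma adjusted p = 2.93e-05). The groups did not overlap for any of these 3 genes.

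MAGEE1, a protein of the dystrobrevin complex, was at 1.30, 1.62, 1.17 and 1.71 FPKM in BPH-1 and at 3.49, 3.86, 3.40 and 4.08 in PC3 (log2 difference 0.94, SE 0.12, limma adjusted p = 8.36e-05). MAGEA3 rose by 0.54 on the same scale (SE 0.04, limma adjusted p = 3.31e-05 with no filter). MAGED2, mutated in a transient antenatal form of Bartter syndrome, was at 5.42, 7.35, 4.80 and 5.91 FPKM in BPH-1 and at 8.16, 8.60, 11.8 and 13.2 in PC3 (log2 difference 0.72, SE 0.18, limma adjusted p = 0.00487). The rise of MAGED2 did not pass after a correction for GC content (log2 difference 0.32, limma adjusted p = 0.0506).

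MAGEH1, a small intronless member, was the only member called lower. It had 91, 56, 88 and 126 reads in BPH-1, which is 3.99 ± 1.23 FPKM, and 2, 3, 0 and 3 reads in PC3, which is 0.103 ± 0.0727 FPKM. BPH-1 had 39.0 times the depth-scaled reads of PC3 (95% exact interval 19.6 to 91.1), and the log2 difference was -2.14 (SE 0.18, limma adjusted p = 5.93e-05 with no filter). The nearest coding gene after it with at least 10 reads in a library, the deubiquitinase gene USP51 at 31.1 kb, averaged 0.477 ± 0.0442 FPKM in BPH-1, 0.0742 ± 0.0754 in DU145 and 0.01995 ± 0.0133 in PC3. The nearest before it, FAM104B, was at 1.60 ± 0.0933, 0.162 ± 0.0672 and 1.13 ± 0.124 FPKM, lowest in DU145, where MAGEH1 was present. MAGEF1 did not pass (log2 difference -0.03, SE 0.13, limma adjusted p = 0.843), although it was called lower after the GC correction (log2 difference -0.41, limma adjusted p = 0.00286).

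DU145 was compared with the same 4 BPH-1 libraries, so the 2 comparisons with BPH-1 are not independent. Of 7 members tested, 4 rose in DU145, 1 fell and 2 did not pass, where 62.6% of all 17070 genes were called, 30.3% as higher and 32.3% as lower. Libraries did not overlap for 5 of the 7, as for 59.4% of all genes. The 4 that rose were the MAGED genes. Of the 6 members with 10 reads in every library, 4 rose and 2 did not pass, where 58.6% of all genes were called. Among 346 other protein-coding genes of chromosome X under that filter, 28 were called higher and 200 lower. Their median log2 difference was -0.60, against 0.67 for the 6 members and -0.01 for all genes. Here too the medians are without the GC correction, and MAGED4 and MAGED4B count separately. With any of the DU145 pairs 1 and 2, 3 and 4, 1 and 3, or 2 and 4 alone, the 4 MAGED genes were called higher and MAGEE1 lower.

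MAGED4 was at 3.49, 2.76, 4.51 and 2.57 FPKM in DU145, above all BPH-1 libraries (2.71-fold, log2 difference 0.94, SE 0.17, limma adjusted p = 0.000845). MAGED4B rose 2.86-fold (log2 difference 0.57, SE 0.09, limma adjusted p = 0.000276). MAGED1 was at 12.9, 12.7, 17.5 and 9.72 FPKM (log2 difference 0.77, SE 0.20, limma adjusted p = 0.00783), and MAGED2 was at 10.9, 9.14, 15.3 and 8.60 FPKM (log2 difference 0.78, SE 0.21, limma adjusted p = 0.00745). None of these DU145 libraries overlapped BPH-1. After the GC correction MAGED1 and MAGED2 no longer passed, at log2 differences of 0.38 and 0.32 (limma adjusted p = 0.0601 and 0.0587), while MAGED4 and MAGED4B did, at 0.57 and 0.36. In DU145, replicate 3 held the highest value of 6 of the 7 type II genes with over 3 reads, MAGEE1 being the exception. This was not particular to DU145, since PC3 replicate 4 held the highest value of 6 of 8 such genes. The part of these libraries in the spread was not tested.

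MAGEE1 was close to absent from DU145. Its reads there were 0, 3, 0 and 2, against 73, 90, 66 and 97 in BPH-1 and 164, 192, 171 and 192 in PC3. BPH-1 had 64.7 times the depth-scaled reads of DU145 (95% exact interval 27.5 to 201) and PC3 had 165 times (70.4 to 510). MAGEE1 fell by 1.26 on the log2 scale from BPH-1 to DU145 (SE 0.10, limma adjusted p = 4.71e-05 with no filter), and by 1.22 to 1.29 with 2 DU145 libraries at a time. Of its nearest coding neighbours with at least 10 reads in a library, PBDC1, 249.5 kb before it, was at 25.5 ± 1.82 FPKM in BPH-1, 13.8 ± 4.38 in DU145 and 10.6 ± 2.21 in PC3, and ATRX, 1074 kb after it, was at 3.90 ± 0.751, 0.0968 ± 0.0886 and 0.299 ± 0.249. Both were lower in PC3 than in BPH-1, although MAGEE1 was highest in PC3. ATRX had its lowest mean in DU145, as MAGEE1 did, while PBDC1 had its lowest mean in PC3. MAGEH1 (log2 difference -0.10, SE 0.26, limma adjusted p = 0.749) and MAGEF1 (0.21, SE 0.18, limma adjusted p = 0.343) did not pass, and neither kept its sign under every scaling.

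The 2 PCa lines also differed from each other. Of 8 members tested, 5 were higher in PC3, 1 was lower and 2 did not pass, where 48.2% of all 16210 genes were called, 20% as higher and 28.3% as lower. Libraries did not overlap for 5 of the 8, as for 46.5% of all genes. Of the 5 members with 10 reads in every library, 3 were higher and 2 did not pass, where 41.1% of all genes were called. Among 325 other protein-coding genes of chromosome X under that filter, 109 were called higher and 27 lower. Their median log2 difference was 0.35, against 0.39 for the 5 members and -0.02 for all genes. In this pair the members were thus close to the other genes of chromosome X. MAGEE1 (log2 difference 2.20, SE 0.10, limma adjusted p = 4.15e-06 with no filter) and MAGEA3 (0.57, SE 0.04, limma adjusted p = 4.53e-05 with no filter) were higher in PC3. MAGEH1 was lower, with DU145 at 88, 57, 131 and 57 reads and 36.3 times the depth-scaled reads of PC3 (95% exact interval 18.2 to 84.7, log2 difference -2.04, SE 0.21, limma adjusted p = 0.000252 with no filter). MAGEE1 and MAGEH1 were thus near 0 in opposite PCa lines and present in the other.

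MAGED4 (log2 difference 0.68, SE 0.19, limma adjusted p = 0.0147), MAGED4B (0.39, SE 0.13, limma adjusted p = 0.0295) and MAGED1 (0.54, SE 0.17, limma adjusted p = 0.0287) were higher in PC3 with less certainty. The groups overlapped for MAGED1, and the call was lost without DU145 replicate 1, 2 or 4 or PC3 replicate 1, 2 or 3, at adjusted p up to 0.0791. For MAGED4B it was lost without DU145 replicate 1, 2 or 4 or PC3 replicate 2, 3 or 4, at adjusted p up to 0.0814. With DU145 replicates 1 and 3 alone, or 3 and 4 alone, none of MAGED4, MAGED4B and MAGED1 passed (limma adjusted p = 0.0717 to 0.168), with 1 and 2 alone MAGED4B did not (limma adjusted p = 0.0673), and with 2 and 4 alone all 3 did. MAGED2 (log2 difference -0.06, SE 0.22, limma adjusted p = 0.843) and MAGEF1 (-0.24, SE 0.19, limma adjusted p = 0.33) did not pass.

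**Figure D3:**
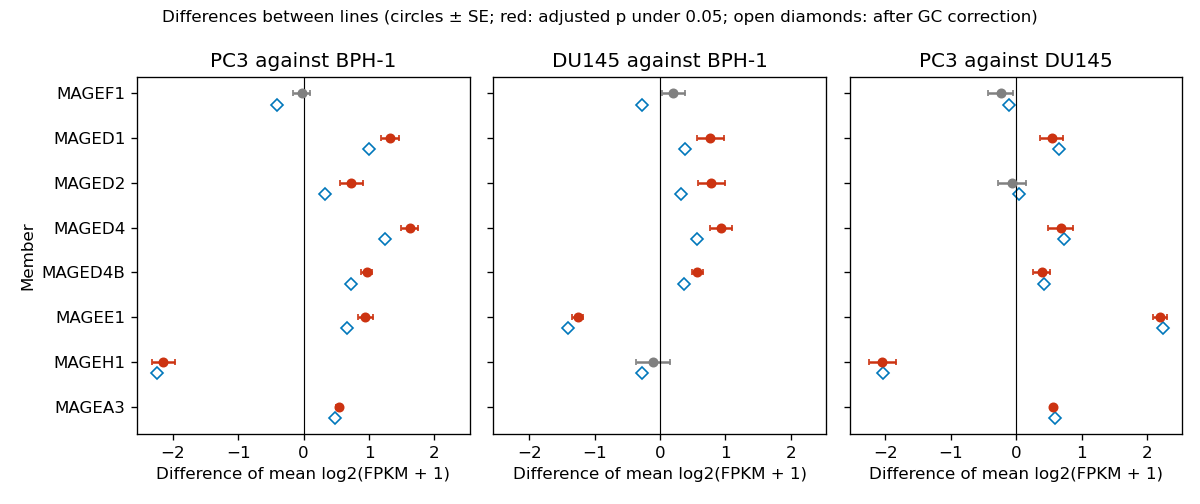
Differences of mean log2(FPKM + 1) for the tested members in each pair of lines, with the standard error as a bar, red where the adjusted p is under 0.05 and grey otherwise. Open diamonds give the difference after the GC correction, which moves the 7 type II genes to lower values in both comparisons with BPH-1 and leaves the signs of MAGEE1 and MAGEH1 against PC3 or BPH-1 as they were.

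MAGED4 and MAGED4B are near copies on opposite strands of chromosome X, and 98.1% of the 100-base stretches of MAGED4 transcripts also occur in MAGED4B. Their separate values are therefore uncertain. MAGED4 had 3.24 ± 0.320 times the reads of MAGED4B in BPH-1, 3.05 ± 0.320 times in DU145 and 3.38 ± 0.461 times in PC3, and no difference of this ratio between lines was detected (exact two-sided permutation p = 0.314 to 0.657, unadjusted over 3 pairs). The sum of both depends little on how reads were split between them, as the lengths used were 10236 and 10796 bases. Whether reads matching both genes were kept also bears on the sum, and is not given in the sources used here. The sum was 1.59 ± 0.130 FPKM in BPH-1, 4.36 ± 1.07 in DU145 and 7.55 ± 1.16 in PC3. Each pair of lines was separate in this sum (exact two-sided permutation p = 0.0286 in each of 3 pairs, the smallest that 4 against 4 allows).

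**Figure D4:**
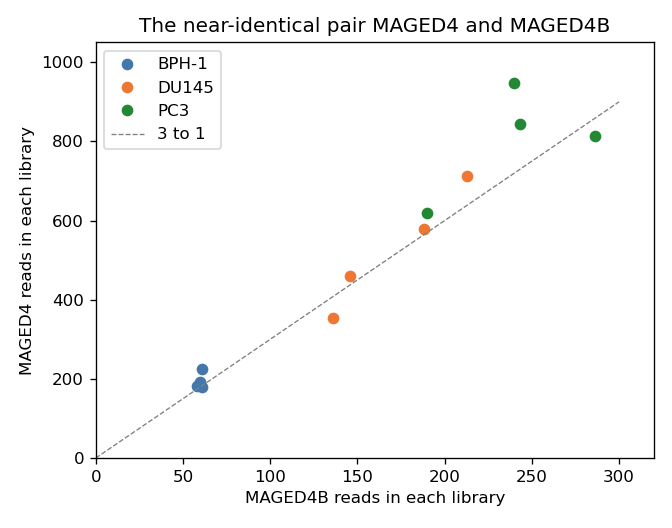
Reads of MAGED4 against reads of MAGED4B in each library, with a dashed line at 3 to 1. The ratio of MAGED4 to MAGED4B reads is 2.60 to 3.95 over the 12 libraries, from 58 and 182 reads in BPH-1 to 240 and 948 reads in PC3.

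Genes that MAGE proteins act with were read from lists of the family's biology. Calls for these and the later lists are given without the GC correction, under which some member calls changed. Of the 11 ligases and adaptors, all tested against BPH-1 in PC3, 1 rose and 5 fell, where 67.6% of all genes were called. TRIM28, the ligase of MAGEA3, MAGEA6 and MAGEC2, rose in PC3 to 51.6 ± 12.5 FPKM from 31.9 ± 3.36 in BPH-1 (log2 difference 0.65, SE 0.16, limma adjusted p = 0.00564). NSMCE1, the ligase of MAGEF1, was at 3.46 ± 0.591 FPKM in PC3, 4.81 ± 0.207 in BPH-1 and 6.15 ± 1.34 in DU145. DCAF12, an adaptor that marks MAGEA3 and MAGEA6 for breakdown, rose in DU145 to 36.3 ± 4.34 FPKM from 15.9 ± 2.19 in BPH-1 (log2 difference 1.14, SE 0.16, limma adjusted p = 0.000153). In DU145, 2 of 10 ligases and adaptors tested rose and 5 fell, where 62.6% of all genes were called. LNX1, among those that fell in both lines, passed the filter through BPH-1 alone and had to differ. It had 96 reads in BPH-1, 4 in PC3 and 0 in DU145.

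Of the 7 substrates and binding partners, 2 rose and 5 fell in PC3 against BPH-1, and 2 rose and 3 fell in DU145, where 67.6% and 62.6% of all genes were called. PRKAA1, the AMPK subunit that MAGEA3 and MAGEA6 target, was at 18.9 ± 0.917 FPKM in BPH-1, 2.92, 11.6, 1.32 and 8.42 in DU145 replicates 1 to 4, and 4.31 ± 2.17 in PC3, and it fell in both PCa lines (log2 differences -1.79 and -2.01, limma adjusted p = 0.00662 and 0.000197). NGFR, the p75 neurotrophin receptor that MAGED1 binds, was at 8.59 ± 2.25 FPKM in BPH-1, 0.777 ± 0.307 in DU145 and 0.160 ± 0.0968 in PC3, with a log2 difference of -3.02 in PC3 (SE 0.17, limma adjusted p = 6.45e-07). MMS19, the target of MAGEF1, rose in PC3 to 9.26 ± 0.784 FPKM and in DU145 to 11.2 ± 3.13 from 6.03 ± 0.770 in BPH-1 (limma adjusted p = 0.00238 and 0.00827). These are RNA levels, and protein was not measured.

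Of 3 genes with the MAGE fold but another name, NSMCE3 rose in DU145 to 10.3 FPKM from 5.93 in BPH-1 (limma adjusted p = 0.00664). TRO was at 0.922 ± 0.215 FPKM in BPH-1, 0.00108 in DU145 and 0 in PC3, and NDN had a mean of at most 0.00945 FPKM in any line.

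Of 37 other X-linked cancer-testis genes, none had the reads to be tested in PC3 against BPH-1, and 2 were tested in DU145, both of which passed the filter through DU145 alone. XAGE1B averaged 17.2 FPKM and CT83 15.3 FPKM in DU145, against 0.0442 and 0 in BPH-1 and 0.0247 and 0 in PC3. Both were far above the 0.329 FPKM of MAGEB2, the highest type I MAGE gene of DU145. CSAG3, which begins 51.6 kb after MAGEA3, had a mean of 0.441 ± 0.318 FPKM in BPH-1 and 0 in PC3, opposite to MAGEA3.

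The DNA methylation list, chosen because type I promoters are silenced by methylation, moved in both directions. Of 11 tested, 2 rose and 5 fell in PC3, and 2 rose and 4 fell in DU145, where 67.6% and 62.6% of all genes were called. DNMT1, which maintains methylation, rose from 18.7 FPKM in BPH-1 to 26.1 in DU145 and 23.6 in PC3 (limma adjusted p = 0.0185 and 0.0328), and DNMT3A rose in DU145 (limma adjusted p = 0.0333). The DNMT1 libraries of PC3 and BPH-1 overlapped (exact two-sided permutation p = 0.0571). TET2, which removes methylation, fell from 1.81 FPKM in BPH-1 to 0.128 in DU145 and 0.162 in PC3 (limma adjusted p = 2.95e-06 and 2.65e-06). DNMT3B, which adds it, fell from 5.42 FPKM to 2.40 and 2.66 (limma adjusted p = 0.00228 and 0.00241).

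MAGEA3 shared its pattern with many genes. Over the 12 libraries, the coding genes most like it on the log2 scale were SOX21 (Pearson r = 0.997), RBP4 (0.995) and THNSL2 (0.995), of 13994 compared, and 660 genes had r above 0.9. All of these are descriptions of 3 lines, in which any gene high in PC3 alone follows MAGEA3. The MAGEA genes lie between 149581653 and 153183880 on chromosome X among 28 other coding genes, and the nearest coding gene before them, CXorf40A, was at 1.26 ± 0.179 FPKM in BPH-1, 1.17 ± 0.315 in DU145 and 2.14 ± 0.447 in PC3. The nearest after them, PNMA6F, was at 0 in all 12 libraries.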

How the data were processed

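RNA-seq libraries of BPH-1, DU145 and PC3 (4 each) were grouped by their labels. The authors deposited 1 table of normalised values on GRCh38. The header names no unit, and from their form the authors' values were taken as FPKM, with gene length as the summed distinct exons of GENCODE 29. The submitters' processing notes name CASAVA 1.8, HISAT2 2.1.0 and edgeR, and the use of strand and treatment of reads with several matches are not given in the sources used here. From the steps between low values (under 50 reads), whole reads were recovered: 92.2% to 93.6% of low values came out within 0.02 of a whole number. Depth was 12950757 to 16309825 reads (median 15341126), and intervals and floors cover counting error only. For 263 genes no length was found, and they were not tested.

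Pairs of lines were tested by limma on log2(FPKM + 1), version 3.58.1 (R 4.3.3, intensity trend), using only the lines compared, genes with 10 reads at the median depth in at least 4 libraries and 15 in all, and Benjamini-Hochberg adjustment at 0.05. Fits that left out 1 library required 3 libraries in place of 4, and those with 2 DU145 libraries required 2. On simulated data with 200 genes of at least 100 reads changed, 97% to 99% of genes changed by 1 on the log2 scale and 100% of those changed by 2 were recovered, with 10 to 17 unchanged genes called. The simulation gave every gene the same dispersion and put no structure between libraries of a line. It therefore does not show the recovery or the false calls in these data, nor the recovery of genes under 100 reads. Ratios of reads carry exact intervals (Clopper-Pearson, 95%). Alternatives were other scalings, filters, pseudocounts, a replicate block, voom on the recovered reads and leaving out each library. After the data were seen, merged exon lengths, DU145 libraries taken 2 at a time and a GC correction (a spline of log2 FPKM on transcript GC, removed library by library) were added. The members and lists were chosen with earlier results of these data known, and named genes were those with a mean of at least 1 FPKM or a call, the partners of members, and up to 4 called genes a list. Nearest coding neighbours of single members were added after values were seen.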

Additional observations from a re-analysis of the deposited data

Results flagged for a closer look

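In groups of 4 libraries, a library was singled out where its gap to the nearest other exceeded Dixon's 95% critical value, which chance alone exceeds in about 1 of 20 groups. Of 28 member and line combinations examined, those with at least 4 reads in a library, 3 were singled out. MAGED4B in BPH-1 replicate 1 was at 0.348 FPKM, with the others at 0.362 to 0.364, a gap of a few reads at 58 reads. MAGEA12 in PC3 replicate 4 was at 0.119 FPKM (7 reads), with the others at 0.0318 to 0.0340. MAGEB2 in DU145 replicate 1 was at 0.575 FPKM (15 reads), with the others at 0.229 to 0.282.

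The difference of PC3 from BPH-1 and that of DU145 from BPH-1 were set against each other, which with shared BPH-1 libraries equals the difference of PC3 from DU145. By limma they differed on the log2 scale for MAGEE1 by 2.20, for MAGEH1 by -2.04, for MAGED4 by 0.68, for MAGEA3 by 0.57, for MAGED1 by 0.54 and for MAGED4B by 0.39. MAGEE1, MAGEH1 and MAGEA3 passed the filter of that test through 1 line alone.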

How the results depend on the processing

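The counts of members called depended most on the filter. Except for the stricter filter, the share of all genes called is not given for these settings. The counts therefore show how member calls shift, not how the family stands against other genes. With the stricter filter, the members called lower went to 0 in all 3 pairs, since MAGEE1 or MAGEH1 is then not tested, and 3 members were called in PC3 against DU145, all 3 higher. With no filter, 2 members were called lower in DU145 against BPH-1 and 2 in PC3 against DU145, and the calls added as higher were MAGEB17 in PC3 against both lines, MAGEB2 in DU145 against BPH-1 and MAGEA6 in PC3 against DU145. With DU145 replicates 1 and 3 only, or 3 and 4 only, 3 members were called in PC3 against DU145, 2 of them higher. After the GC correction, 2 members were called lower in PC3 against BPH-1, and 3 were called in DU145 against BPH-1, 2 of them higher. Leaving out each library in turn gave 3 to 5 members higher in PC3 against DU145. Replicate numbers did not pair the libraries (correlations of deviations -0.735 to 0.589), and with a replicate block 3 members were called higher in PC3 against DU145, MAGED4 and MAGED4B missing at limma adjusted p = 0.0538 and 0.0864. Members called in PC3 against BPH-1 kept their sign in every setting.

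Several differences that did not pass changed sign. MAGEF1 in PC3 against BPH-1 was 0.067 with median-of-ratios scaling, 0.38 with upper-quartile scaling, 0.15 with voom and -0.14 to 0.023 leaving out 1 library. In DU145 against BPH-1, MAGEF1 was -0.039 with equal sums, -0.27 after the GC correction and -0.016 with DU145 replicates 2 and 4 only, and MAGEH1 was 0.14 with upper-quartile scaling, 0.22 with DU145 replicates 1 and 3 only, 0.083 with 3 and 4 only and -0.30 to 0.040 leaving out 1 library. MAGED2 in PC3 against DU145 was 0.033 with median of ratios, 0.044 with upper quartile, 0.039 after the GC correction, 0.033 with DU145 replicates 1 and 2 only, 0.19 with 2 and 4 only and -0.17 to 0.098 leaving out 1 library. Upper-quartile scaling moved the median of all genes by 0.23 in PC3 and 0.16 in DU145 against BPH-1, and equal sums by -0.16 and -0.14. The cause of these changes was not tested. Depth limits the type I genes, of which MAGEA3 alone was tested.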
